A study of Homo sapiens with 6 samples.

Results

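This account follows 9 genes that take up, make, bind or break down retinoic acid, out of 35793 gene symbols listed: STRA6, DHRS3, ALDH1A1, ALDH1A2, ALDH1A3, CRABP1, CRABP2, CYP26A1 and CYP26B1. They were chosen by name, and all 9 symbols were found. Bulk RNA came from heart muscle cells differentiated in culture from induced pluripotent stem cells of human origin. The wild-type group was WTC11, an established and unedited cell line, and the STK25KO group was a WTC11 derivative in which both STK25 alleles, which encode a kinase, were knocked out with CRISPR/Cas9. Each group had 3 samples, untreated and collected at day 15, which the labels call biological replicates without naming separate cultures. The p-values measure the spread between these samples, which may be partly technical. Both groups were kept in RPMI medium with B27, a supplement sold with or without a vitamin A ester, and the labels do not say which form was used. The knockout is represented by 1 derived line, so an effect of the edit and any other difference between the lines cannot be told apart.

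Retinoic acid is a vitamin A derivative that enters the nucleus and switches genes through paired nuclear receptors. Cells take up retinol, oxidise it to retinal and then, through the ALDH1A enzymes, to retinoic acid, while CYP26 enzymes destroy it, so that its level differs from tissue to tissue. In the developing heart it is made by the epicardium and the posterior heart field, among other sources, and it favours atrial over ventricular fate.

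Libraries held from 22443904 to 53224112 reads assigned to genes. All 10 cardiomyocyte markers on the list used, among them TNNT2 and ACTN2, averaged 10 or more normalized counts. Of these 0 were higher and 2 lower in the knockout, or 20% called against 12.8% of all genes tested. The median log2 fold change of the 10 was 0.085, and 5 had positive values, none of them called. NKX2-5, a cardiac transcription factor, stood at 30.6% of the wild-type mean (log2 fold change -1.71, limma adjusted p = 0.00135), and PLN, a calcium pump regulator, at 58.8% (-0.76, limma adjusted p = 0.0459). The PLN call was lost without each library except STK25KO replicate 1 (limma adjusted p up to 0.176). With other settings included, it was lost in 10 of the 20 alternatives tried (limma adjusted p up to 0.272). The part of these marker changes in the results that follow was not tested. The targeted gene checks the labels: STK25 had 8874, 6774 and 8710 normalized counts in wild-type replicates 1, 2 and 3 and 3906, 3434 and 3820 in STK25KO replicates 1, 2 and 3. Its log2 fold change was -1.12 (SE 0.19, limma adjusted p = 0.00903), and it lost the call without wild-type replicate 1 (-1.05, limma adjusted p = 0.0609). The labels gave no batch. Wild-type replicate 2 and STK25KO replicate 1 stood apart from the other 4 libraries on the second principal component, which carried 24.1% of the variance, so results are also given without them.

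Of the 9 genes, 4 averaged 10 or more normalized counts over the 6 libraries and were tested: STRA6, DHRS3, ALDH1A2 and CRABP2. The other 5 lay below that mean. DHRS3 and ALDH1A2 were higher in the knockout, STRA6 was lower, and CRABP2 did not pass the test. Over all 15536 genes tested, 12.8% were called at an adjusted p under 0.05, 5.97% higher and 6.79% lower in the knockout. The values of the genotypes did not overlap for these 3 genes, as for 33.4% of all genes tested. ALDH1A2 reached the mean needed for testing through its knockout libraries only, so it is described and not counted as support.

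**Figure D1:**
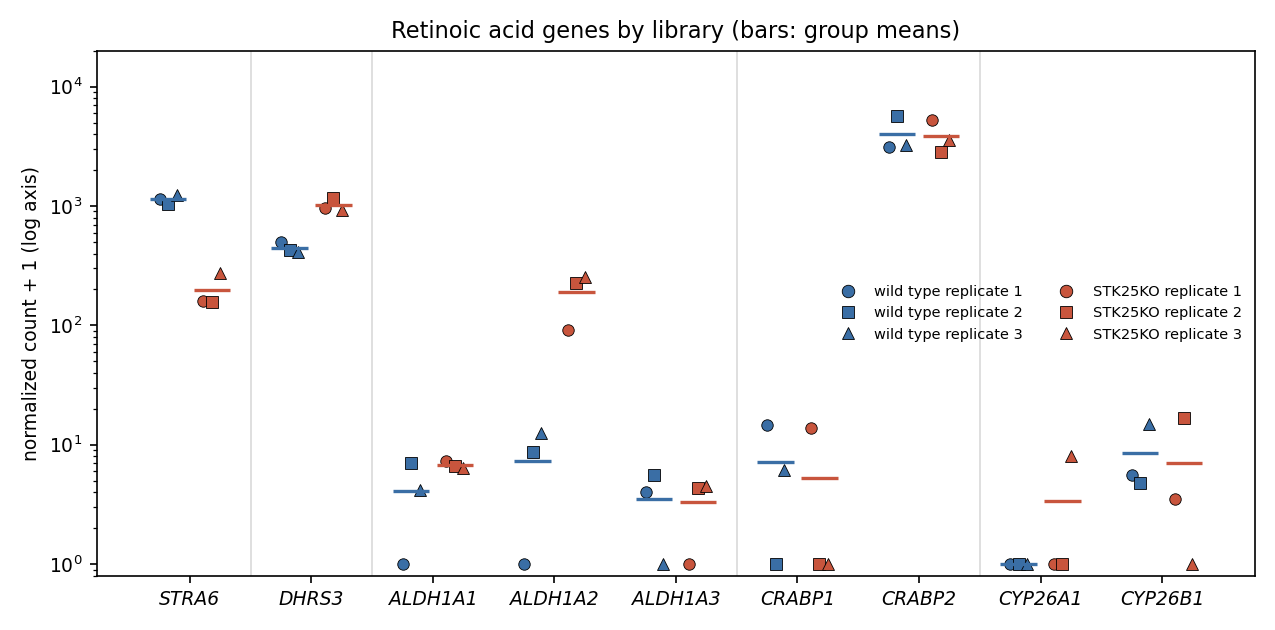
Normalized counts plus 1 on a log axis for the 9 genes in each of the 6 libraries; blue marks are wild type, red marks STK25KO, shapes are replicates, and horizontal bars are group means. STRA6 sits between 1043 and 1233 in the wild type and between 157 and 273 in the knockout, DHRS3 and ALDH1A2 move the other way, CRABP2 overlaps, and the 5 remaining genes lie near the floor.

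Uptake was represented by STRA6, the cell-surface receptor that moves retinol from its serum carrier into cells (ENSG00000137868, chromosome 15, 74179466 to 74212267 in GENCODE 29 on GRCh38, minus strand). It had 1137, 1043 and 1233 normalized counts in wild-type replicates 1, 2 and 3 and 158, 157 and 273 in STK25KO replicates 1, 2 and 3. Every knockout library lay below every wild-type library, and knockout replicate 3 was the highest of its group. The means were 1138 ± 95.2 and 196 ± 66.7 (SD, n = 3 each), so the knockout held 17.2% of the wild-type level. The log2 fold change, on log2(value + 1), was -2.58 (SE 0.28), and its 95% interval ran from -3.24 to -1.92 (limma adjusted p = 0.00156). It was -2.51 without the pair of libraries that stood apart, and its adjusted p was at most 0.0142 over the 20 alternatives tried. In bulk RNA, fewer cells that express a gene and less of its RNA per cell cannot be told apart. STRA6 shares 540 exonic bases with CCDC33 on the opposite strand, whose mean was 86.9 in the wild type and 10.2 in the knockout. Whether counting used strand is not given in the sources used here, so reads of the shared bases cannot be assigned.

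DHRS3 reduces retinal back to retinol and so draws on the same pool that the ALDH1A enzymes oxidise; it is itself known to be induced by retinoic acid (ENSG00000162496, chromosome 1, 12567910 to 12617731, minus strand). Wild-type values were 494, 428 and 413 normalized counts, and those of the knockout were 960, 1165 and 928. The lowest knockout library was above the highest wild-type library. Means were 445 ± 43.1 and 1017 ± 129 (SD, n = 3 each), a 2.29-fold difference. On the log2 scale the difference was 1.19 (SE 0.21), with a 95% interval from 0.70 to 1.68 (limma adjusted p = 0.0112), and 1.20 without the pair of libraries that stood apart. The call was lost without wild-type replicate 3 (1.14, limma adjusted p = 0.0534) and with all libraries scaled to equal totals (0.91, limma adjusted p = 0.0613). That scaling lowered the median of all genes to -0.27, and DHRS3 was 1.18 above it.

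ALDH1A2, the main enzyme that makes retinoic acid in the embryonic heart region, was close to absent in the wild type (chromosome 15, 57953424 to 58497866, minus strand). Wild-type replicates 1, 2 and 3 had 0, 7.62 and 11.5 normalized counts, from 0, 10 and 18 reads. In the knockout there were 90.2, 224 and 254, from 71, 201 and 286 reads. The lowest knockout library was far above the highest wild-type library, and knockout replicate 1 was the lowest of its group. Means were 6.37 ± 5.84 and 189 ± 87.3 (SD, n = 3 each). On the log2 scale that was a difference of 5.19 (SE 0.99), with a 95% interval from 2.91 to 7.48 (limma adjusted p = 0.0141). Without knockout replicate 3 the call was lost (4.91, limma adjusted p = 0.0660), as it was with a pseudocount of 0.1 (6.38, limma adjusted p = 0.0541); without the pair of libraries that stood apart the value was 6.08. ALDH1A2 shares exonic bases on the opposite strand with AQP9 (354 bases) and with AC025431.1 (209 bases). AQP9 had means of 2.79 and 4.67, no value was matched for AC025431.1, and the part of shared reads in the ALDH1A2 values was not tested.

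The other enzymes of the family gave few reads. ALDH1A1, a cytosolic retinal dehydrogenase, had 0, 8 and 5 reads in wild-type replicates 1, 2 and 3 and 5, 5 and 6 in the knockout. ALDH1A3, known from eye and nasal development, had 2, 6 and 0 reads in the wild type and 0, 3 and 4 in the knockout. Neither gene separated the genotypes at this depth. ALDH1A2 supplied 93.4%, 96.2% and 96.6% of the reads of the 3 enzymes in the knockout libraries, with exact 95% binomial intervals from 85.3% to 97.8%, 92.6% to 98.3% and 93.9% to 98.4%. In wild-type replicate 1 it had 0 of 2 reads, with an exact interval from 0% to 84.2%. In wild-type replicates 2 and 3 its share was 41.7% of 24 reads and 78.3% of 23 reads, with exact intervals from 22.1% to 63.4% and from 56.3% to 92.5%. Those intervals cover counting error only.

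Because ALDH1A2 marks the epicardium, the layer that covers the heart, the list of 11 epicardial and mesothelial markers is set beside it. Of the 10 markers tested, 2 were higher in the knockout and 0 lower, or 20% called against 12.8% of all genes tested. The median log2 fold change was 0.69 against 0.0052 for all genes tested. Of the 8 with a mean of at least 10 in both genotypes, 1 was called, or 12.5% against 11.6% of all such genes. TCF21, a transcription factor of epicardial and stromal cells, had 3.02, 57.1 and 6.38 normalized counts in the wild type and 543, 447 and 411 in the knockout (log2 fold change 5.28, SE 0.90, limma adjusted p = 0.00952). BNC2, a zinc finger protein that reached the mean for testing through the knockout only, rose from 5.21 ± 5.97 to 94.2 ± 51.6 (SD, n = 3 each; limma adjusted p = 0.0195), a call lost without wild-type replicates 2 or 3 or knockout replicate 2 (limma adjusted p up to 0.0712). The epicardial regulator WT1 had 28.7, 4.57 and 18.5 in the wild type and 159, 135 and 43.5 in the knockout (limma adjusted p = 0.0584), and TBX18 had 61.9, 120 and 147 against 267, 280 and 187 (limma adjusted p = 0.0898). Neither passed the test, although their values did not overlap between genotypes. SEMA3D also lay higher in every knockout library (2.89 on the log2 scale, limma adjusted p = 0.0671). The other 5 markers tested overlapped between the genotypes, and 4 of them had negative values that did not pass the test: UPK1B at -1.20, ITLN1 at -0.47, LRRN4 at -0.39 and BNC1 at -0.13. The fifth, UPK3B, was at 0.16. MSLN, a mesothelial surface protein, had at most 3 reads in every library. The summed level of the list ran from 2747 to 5011 in wild-type libraries and 2742 to 5581 in those of the knockout, but LRRN4 made up most of it. LRRN4 was 86.1% to 92.4% of the sum in the wild type and 54.4% to 77.1% in the knockout. Without it the sum was 372 to 382 in the wild type and 1069 to 1281 in the knockout, with no overlap. LRRN4 was set aside for its level in these same libraries, so that separation is a description and not support. Of all single genes tested, 33.4% did not overlap. The remaining sum held TCF21, with means of 22.2 and 467, and TBX18, with 109 and 244, so it does not show that the list as a whole rose. Among the knockout libraries, replicate 1 had the least ALDH1A2, BNC1, LRRN4 and SEMA3D. That library had the most TCF21, WT1, UPK3B, UPK1B and ITLN1. Of 8 stromal markers, 3 were higher, THY1 and DCN among them, and 1 was lower, or 50% called against 12.8% of all genes tested. Their summed levels ran from 12924 to 26543 in wild-type libraries and 7871 to 16397 in those of the knockout. COL1A1 and COL1A2 made up most of that sum in the wild type. Their means were 10227 and 7514 there and 4792 and 240 in the knockout. The part of other cell types in the ALDH1A2 result was not tested.

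**Figure D2:**
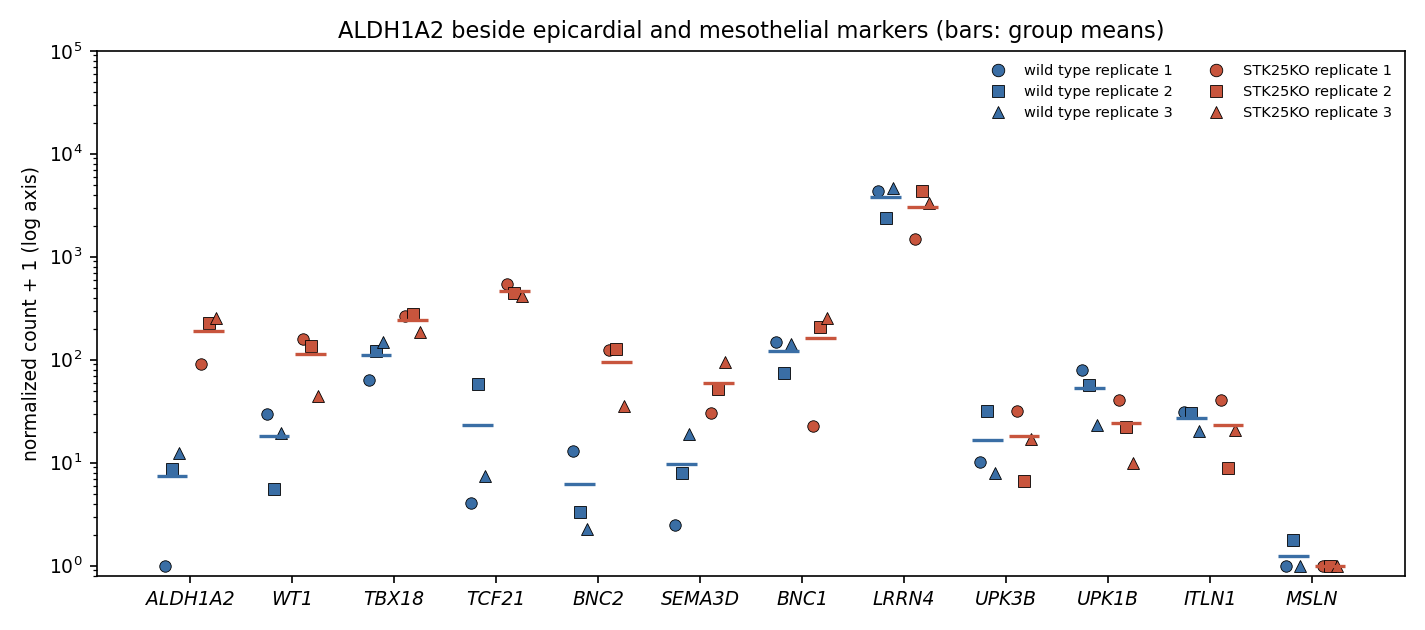
ALDH1A2 and all 11 epicardial and mesothelial markers, as normalized counts plus 1 on a log axis; blue marks are wild type, red marks STK25KO, shapes are replicates, and bars are group means. ALDH1A2, WT1, TBX18, TCF21, BNC2 and SEMA3D are higher in each knockout library than in any wild-type library, while UPK3B, UPK1B, BNC1, LRRN4 and ITLN1 overlap and MSLN is at the floor.

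Binding was carried by CRABP2, which delivers retinoic acid to its nuclear receptors (chromosome 1, 156699606 to 156705816, minus strand). Wild-type values were 3151, 5626 and 3270 normalized counts, and those of the knockout were 5224, 2833 and 3595. The groups overlapped, and the highest library of each genotype was one of the pair that stood apart. Means were 4015 ± 1396 and 3884 ± 1222 (SD, n = 3 each). The log2 fold change was -0.04 with a 95% interval from -0.76 to 0.68 (limma adjusted p = 0.954). It was 0.23 without wild-type replicate 2, 0.16 without STK25KO replicate 2 and -0.0083 without the pair that stood apart. CRABP1, a relative linked to retinoic acid breakdown and storage, had 9, 0 and 8 reads in the wild type and 10, 0 and 0 in the knockout.

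Breakdown genes were near the floor in both genotypes. CYP26A1, a hydroxylase that clears retinoic acid and one of its most responsive target genes, had 0 reads in all 3 wild-type libraries and in STK25KO replicates 1 and 2, and 8 reads, or 7.11 normalized counts, in STK25KO replicate 3. A count of 0 allows up to 3 reads, which is from 1.91 to 4.53 normalized counts over the 6 libraries. CYP26B1, its relative, had 3, 5 and 22 reads in the wild type and 2, 14 and 0 in the knockout, and the groups overlapped. With no filter on low values, the 5 genes below the mean of 10 had limma adjusted p-values from 0.548 to 0.976.

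The start-site windows that RefSeq gives for these genes (GRCh38.p14, from 250 bases before to 50 after a start) were searched for retinoic acid response elements, to show which genes of the set carry one in that window. The pattern sought was a pair of the half-sites AGGTCA or AGTTCA or GGGTCA or GGTTCA in the same direction, with 5, 2 or 1 bases between them, on either strand. All 9 genes had a window, 17 windows in all, and 1 window held a match, a 5-base-spaced pair at CYP26A1. Of the 74 other pathway genes described next, 52 had a window and 1 matched, the receptor gene RARB. Among all 35116 windows, 0.0883% held such a 5-base-spaced pair, 0.0399% a pair 2 bases apart and 0.131% a pair 1 base apart. The sites are shown 5′ to 3′ on the strand of the gene, with the matched pair in capitals and 5 flanking bases on each side.
CYP26A1: aaagaTGAACTTTGGGTGAACTaattg
RARB: ggtagGGTTCACCGAAAGTTCActcgc
The CYP26A1 site lies at chr10:93073798-93073824 and ends, without its flank, 73 bases before the second of its RefSeq starts, within an annotated exon of the gene; its pair reads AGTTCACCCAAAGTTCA on the other strand. The RARB site lies at chr3:25428205-25428231, 36 bases before the start, outside annotated exons. CYP26A1 was near the floor throughout, and RARB, described below, did not differ between the genotypes beyond the spread of the replicates. A match is a description of letters in this window, and DHRS3, STRA6 and ALDH1A2 held none there.

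Levels were ordered per kilobase of the longest principal transcript, since longer transcripts give more reads. In the wild type the order was CRABP2 (3887 ± 1351 normalized counts per kilobase), STRA6 (397 ± 33.2) and DHRS3 (258 ± 25.1; SD, n = 3 each), and the ranges of these 3 did not overlap. In the knockout it was CRABP2 (3760 ± 1182), DHRS3 (591 ± 74.7), STRA6 (68.4 ± 23.3) and ALDH1A2 (46.2 ± 21.3; SD, n = 3 each). The ranges of STRA6 and ALDH1A2 overlapped there, from 54.9 to 95.3 and from 22.0 to 62.0, so their order is not fixed. DHRS3 and STRA6 changed places between the genotypes. All other genes of the set were at or below 8.07 normalized counts per kilobase on average.

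The rest of the pathway was read from 5 lists holding 74 other genes, of which 48 were tested. Here 14 passed, 7 higher and 7 lower, or 29.2% against 12.8% of all genes tested, and the median log2 fold change was 0.00085 against 0.0052. HOXB5 passed the filter through its wild-type libraries only. Of the 43 genes with a mean of at least 10 in both genotypes, 13 were called, or 30.2% against 11.6% of all such genes. The lists were chosen with earlier results of these data known, so these shares are a description and not support. The count of 14 was 8 to 18 when 1 library was left out: it was 9 without the first wild-type library, and 8 without replicate 3 of either genotype.

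**Figure D3:**
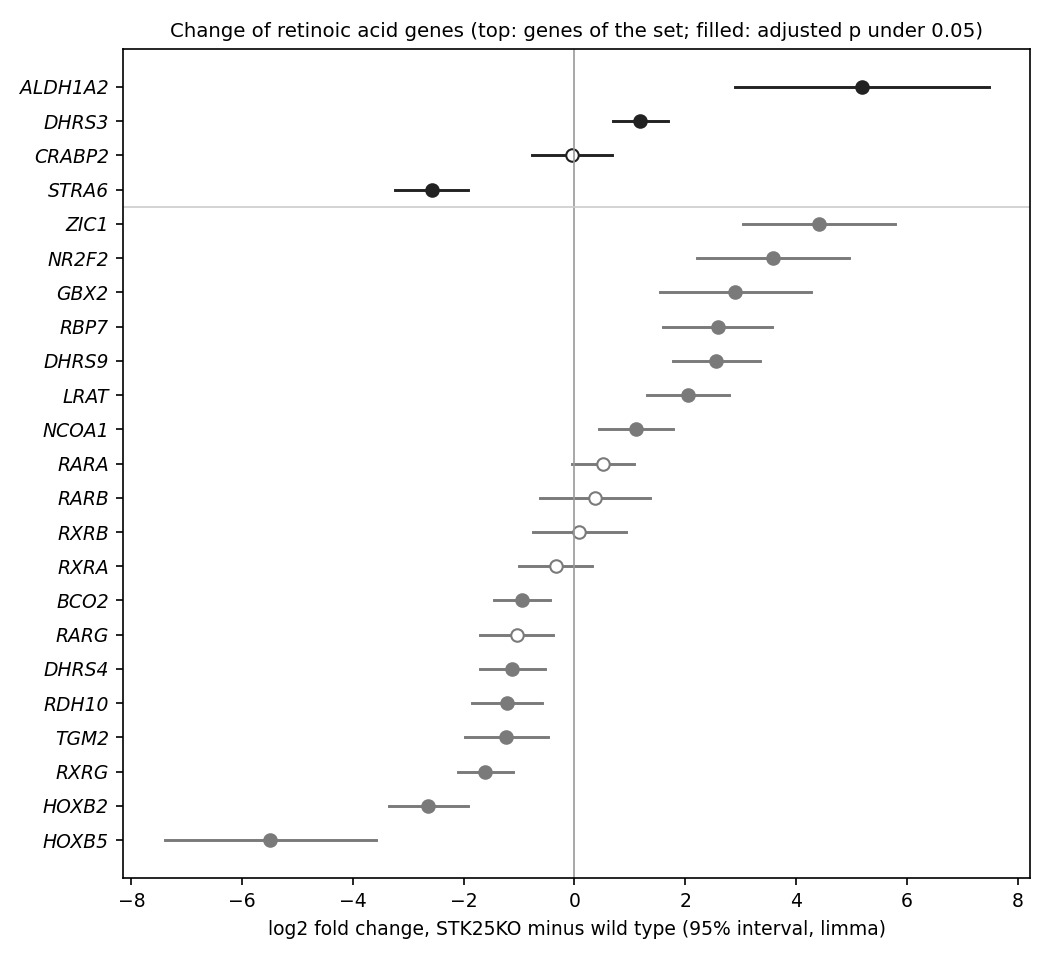
Log2 fold change (STK25KO minus wild type) with its 95% interval from limma for the 4 tested genes of the set (top, black) and for the other pathway genes that passed the test or encode receptors (grey); filled points have an adjusted p under 0.05. STRA6 lies at -2.58, DHRS3 at 1.19 and ALDH1A2 at 5.19, and the other pathway genes spread on both sides of 0.

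Among 14 genes of retinoid uptake, storage and transport, 8 were tested, 2 rose and 1 fell. That was 37.5% called against 12.8% of all genes tested. RBP7, a retinol-binding protein of the cytosol, rose from 177, 436 and 212 normalized counts to 2254, 994 and 1585 (log2 fold change 2.58, SE 0.42, limma adjusted p = 0.00790). LRAT, which esterifies retinol for storage, had 174, 168 and 106 in the wild type and 453, 752 and 658 in the knockout, a log2 fold change of 2.05 (SE 0.32, limma adjusted p = 0.00657). Every knockout library exceeded every wild-type library for both genes. BCO2, a carotenoid-cleaving enzyme, fell from 979 ± 126 to 507 ± 62.9 (SD, n = 3 each), or -0.95 on the log2 scale (limma adjusted p = 0.0279), a call lost without wild-type replicates 1 or 3 or knockout replicates 2 or 3 (limma adjusted p up to 0.140). RBP7 was highest, within each genotype, in the library that stood apart.

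Of 20 other dehydrogenases, reductases and related enzymes, 11 were tested, 1 rose and 2 fell. That was 27.3% called against 12.8% of all genes tested. DHRS9, a retinol dehydrogenase, rose from 234, 165 and 131 normalized counts to 1487, 786 and 905 (log2 fold change 2.56, SE 0.34, limma adjusted p = 0.00315), with no overlap. RDH10, the enzyme that oxidises retinol to retinal in the embryo, had 1258, 955 and 1569 in the wild type and 416, 639 and 563 in the knockout. Its log2 fold change was -1.22 (SE 0.27, limma adjusted p = 0.0253), with no overlap either, but the call was lost without wild-type replicates 1 or 3 or knockout replicate 3 (limma adjusted p up to 0.106). RDH10 shares 278 exonic bases with its antisense gene RDH10-AS1. DHRS4 fell from 1419 ± 295 to 652 ± 147 (SD, n = 3 each; limma adjusted p = 0.0262). That call was lost without each of 5 libraries, all except STK25KO replicate 1 (limma adjusted p up to 0.0970), and the gene has near-identical copies beside it and shares 331 exonic bases with DHRS4-AS1, so its value is uncertain. CYP26C1, the third breakdown enzyme, had no read in any library, which allows at most 3.

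**Figure D4:**
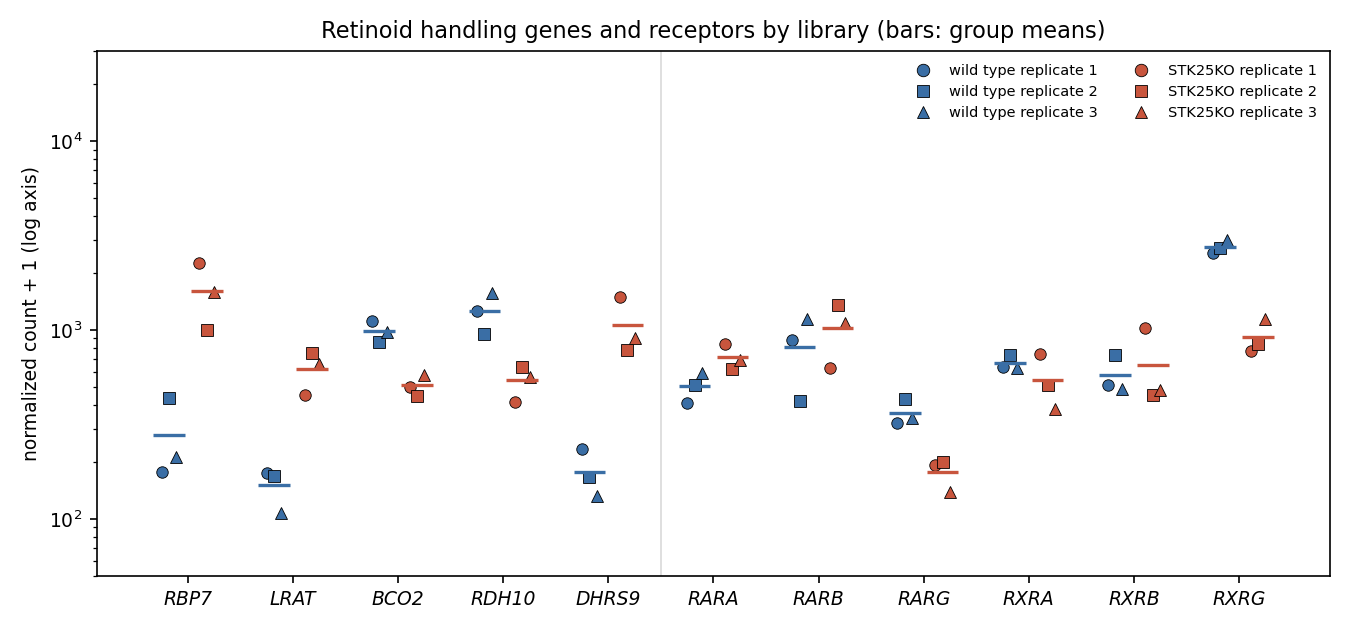
Retinoid handling genes (left) and the 6 receptor genes (right) as normalized counts plus 1 on a log axis in each library; blue marks are wild type, red marks STK25KO, shapes are replicates, and bars are group means. RBP7, LRAT and DHRS9 are higher and RDH10, BCO2, RARG and RXRG lower in all knockout libraries, while RARB, RXRA and RXRB overlap.

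The receptors are pairs of a retinoic acid receptor (RARA, RARB, RARG) with a retinoid X receptor (RXRA, RXRB, RXRG), and 1 of the 6 passed the test. That was 16.7% against 12.8% of all genes tested. RXRG fell from 2559, 2713 and 2986 normalized counts to 769, 836 and 1138, or by 1.61 on the log2 scale (SE 0.21, limma adjusted p = 0.00332). The genotypes did not overlap. RARG had 319, 430 and 339 in the wild type and 192, 200 and 137 in the knockout, a log2 fold change of -1.05 that lay just over the threshold (limma adjusted p = 0.0501). It was under it without the pair of libraries that stood apart (-0.99, limma adjusted p = 0.0413), with equal totals (-1.33, limma adjusted p = 0.0222), with a mean of at least 50 (limma adjusted p = 0.0461) and with DESeq2 (adjusted p = 0.00489). RARB, a textbook target of retinoic acid with the response element shown above, had 885, 419 and 1137 against 624, 1348 and 1088. Those groups overlapped, with a log2 fold change of 0.37 and a 95% interval from -0.63 to 1.37 (limma adjusted p = 0.638), which was -0.047 without wild-type replicate 2. RARA stood at 0.52 on that scale (limma adjusted p = 0.215), RXRA at -0.34 (limma adjusted p = 0.503) and RXRB at 0.09 (limma adjusted p = 0.909). RXRB turned to -0.19 with equal totals, -0.021 without wild-type replicate 3 and -0.29 without STK25KO replicate 1.

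Among 8 corepressors and coactivators of these receptors, 1 passed, or 12.5% against 12.8% of all genes tested. NCOA1, a coactivator, rose from 908 ± 256 to 1930 ± 391 (SD, n = 3 each), or 1.11 on the log2 scale (limma adjusted p = 0.0423). The call was lost without any one library except STK25KO replicate 1 (limma adjusted p up to 0.152) and with equal totals (0.83, limma adjusted p = 0.190). With other settings included, it was lost in 8 of the 20 alternatives tried.

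A list of 30 genes known to respond to retinoic acid in embryonic or cultured cells held 18 tested genes, of which 3 were higher and 3 lower. That was 33.3% called against 12.8% of all genes tested, with a median log2 fold change of 0.04. The higher genes were transcription factors. NR2F2, a nuclear receptor of atrial and venous cells, had 19.6, 69.3 and 19.8 normalized counts in the wild type and 652, 308 and 260 in the knockout (log2 fold change 3.59, SE 0.59, limma adjusted p = 0.00818). ZIC1, a zinc finger factor of neural development, went from 13.3 ± 8.94 to 275 ± 95.7 (SD, n = 3 each), or 4.41 on the log2 scale (limma adjusted p = 0.00340). GBX2, a homeobox gene, went from 14.3 ± 9.29 to 101 ± 23.0 (SD, n = 3 each; limma adjusted p = 0.0178), a call lost without wild-type replicate 3 or STK25KO replicate 3 (limma adjusted p up to 0.0786). Of 10 neural markers 5 were tested, 3 higher and 0 lower, or 60% called against 12.8% of all genes tested. However, SOX2 and PAX6 reached the mean for testing through the knockout only. Of the 3 with a mean of at least 10 in both genotypes 1 was called, or 33.3% against 11.6% of all such genes. It was TUBB3 (2.99 on the log2 scale, limma adjusted p = 0.00997). The list had summed levels from 4670 to 7969 in wild-type libraries and 7132 to 17014 in those of the knockout, but NES made up most of each sum. NES had 5264, 7747 and 4502 normalized counts in the wild type and 16198, 6481 and 6633 in the knockout. Its values overlapped, and it was not called (limma adjusted p = 0.340). The part of the neural list in the ZIC1 and GBX2 values was not tested. ZIC1 shares 176 exonic bases with ZIC4 on the opposite strand, which had means of 0 and 99.4, and GBX2 shares 221 with AC019068.1, also on the opposite strand.

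The lower genes of that list were HOXB2, HOXB5 and TGM2. HOXB2, a homeobox gene of anterior position, had 3183, 4246 and 2593 normalized counts in the wild type and 740, 366 and 535 in the knockout (log2 fold change -2.64, SE 0.31, limma adjusted p = 0.00200). HOXB5 had 118, 239 and 93.8 against 0, 5.57 and 3.55, from 0, 5 and 4 reads (limma adjusted p = 0.00553). Both have antisense partners with shared exonic bases, so part of their reads may belong to those. TGM2, a transglutaminase, fell from 13017 ± 4169 to 5502 ± 1507 (SD, n = 3 each), or -1.23 on the log2 scale (limma adjusted p = 0.0446), a call lost without any one library except wild-type replicate 2 (limma adjusted p up to 0.166). With other settings included, the TGM2 call was lost in 10 of the 20 alternatives tried. TGM2 shares 394 exonic bases with RPRD1B on the opposite strand, which had means of 1014 and 933.

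Since retinoic acid favours atrial fate, markers of the chambers are given beside it. Of 12 atrial markers tested, 2 were higher, NR2F2 among them, and 4 lower, GJA5 among them, with a median log2 fold change of 0.49. That was 50% called against 12.8% of all genes tested. GJA5 reached the mean for testing through the wild type only. Of the 9 markers with a mean of at least 10 in both genotypes 5 were called, or 55.6% against 11.6% of all such genes. Of 8 ventricular markers, 0 were higher and 5 lower, or 62.5% called against 12.8% of all genes tested, with a median of -3.14. MYL2, a ventricular myosin light chain, had the largest change, -6.68 (limma adjusted p = 0.000281). The remaining ventricular markers had positive values that did not pass the test. MYH7 was at 1.42 without overlap (limma adjusted p = 0.0639), MYL3 at 0.54 and HAND1 at 0.14. The summed ventricular level, mostly MYL3 and MYH7, ran from 242108 to 286682 in wild-type libraries and 401088 to 433346 in those of the knockout. Smooth muscle markers were higher in 4 of 4, or 100% called against 12.8% of all genes tested, with MYH11 at 5.12 (limma adjusted p = 0.000175). The part of these shifts in the values of the set was not tested.

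For STRA6 and DHRS3, the pair of genes with the lowest adjusted p in the set, the 3 genes with the most similar profile over the 6 libraries were found among 13035 genes with a mean of at least 50. The measure was the Pearson correlation of log2(value + 1), given as a description, since the libraries share their genotype. Nearest to STRA6 were GJA5 (r = 0.999), PYCR1 (0.998) and LYZL4 (0.997). GJA5, a connexin of atrial and conduction cells, had a mean of 1021 in the wild type and 1.18 in the knockout, against 4024 and 3166 for PYCR1, so that similar profiles came with very unequal sizes of change. Nearest to DHRS3 were SOCS2 (0.997), TRIB3 (0.994) and PCMTD1 (0.993). Such values were common: 457 genes had an r over 0.95 with STRA6 and 341 with DHRS3.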

How the data were processed

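The deposited table gives, for every gene symbol and each of 6 libraries, a signal that the authors call normalized counts; 0 other columns were present. Per the submitters' processing notes, bcl2fastq 2.19, kallisto 0.44.0 and DESeq2 1.28.1 were used with GRCh38, with no role or order given. Annotation and strand are not given in the sources used here. Per the labels' protocols, cDNA was made with Clontech Ultra Low v4 reagents and NexteraXT gave the libraries. In every column 100% of values were whole multiples of 1 step (within 0.01 reads), so they are whole reads divided by 1 factor per library; multiplying back gave the reads. If kallisto made the counts, these are rounded estimates, and reads of similar genes were shared out by it. Molecular identifiers are not mentioned, so floors of 3 reads and intervals cover counting error only. Replicates never matched within counting noise (chi-square over degrees of freedom 18.9 to 363).

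limma 3.58.1 (R 4.3.3; lmFit, eBayes with a trend) was fitted on log2(value + 1) for the 15536 genes with a mean of at least 10, with Benjamini-Hochberg adjustment over all of them and a threshold of 0.05. Alternatives were pseudocounts of 0.1 and 10, no filter on low values, a minimum mean of 50, 3 other scalings, a replicate block, 2 other forms of eBayes (untrended and robust), edgeR 4.0.16 (2 scalings) and DESeq2 1.42.0 on the recovered reads, and leaving out each library. Leaving out the pair of libraries that stood apart was added after the data were seen. On simulated data of 15536 genes with the real means and depths, limma recovered 36 of 50 genes changed by 1 on the log2 scale and 50 of 50 changed by 2, with 9 false calls among 195. DESeq2 made 23 false calls among 212. The simulated spread between replicates was assumed and not fitted to these libraries, and no library was made to stand apart. The changed genes all had a mean of at least 50. These rates may therefore not hold for the real libraries.

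The 9 genes and the lists were chosen with earlier results of these data known. Named were the 9 genes, STK25, called pathway genes, the 6 receptors, up to 3 called markers a list and the most similar genes. CYP26C1, the uncalled epicardial and ventricular markers, NES, COL1A1, the overlapping genes, TNNT2 and ACTN2 were named after their values were seen. Positions and lengths come from GENCODE 29 on GRCh38; lengths are those of the longest transcript tagged principal. Sequences come from RefSeq (GRCh38.p14). Figures used Python 3.11.15 and matplotlib 3.10.9.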

Additional observations from a re-analysis of the deposited data

How the results depend on the processing

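The direction of STRA6, DHRS3 and ALDH1A2 was the same in all 20 alternatives; STRA6 was called in 20, ALDH1A2 in 18 and DHRS3 in 17, with log2 fold changes from -2.86 to -2.45, from 3.56 to 6.38 and from 0.91 to 1.27. Leaving out 1 library left 2 to 3 genes of the set called. ALDH1A2 is among the genes counted, although it reached the mean for testing through its knockout libraries only. Its calls are therefore a description and not support. Over all genes, 1982 were called; edgeR on the recovered reads gave 1864 with TMM and 1859 with RLE scaling, DESeq2 3210, the replicate block 798, the fit without the pair of libraries that stood apart 4483, and the fits that left out 1 library 796 to 2181 (with wild-type replicates 1 or 3 omitted 796 or 916, with STK25KO replicates 2 or 3 omitted 1292 or 962). For the other pathway genes the count of 14 became 22 with DESeq2, 8 with the block, 28 without that pair and 8 to 18 with 1 library left out. The cause of these moves was not tested. With equal totals 549 genes were higher and 1457 lower, in place of 927 and 1055. Values that changed sign were not called in either setting: CRABP2 (0.23 and 0.16), RARB (-0.047) and RXRB (-0.19, -0.021, -0.29, and -0.095 without the pair that stood apart). Leaving out 1 library gave -0.28 to 0.23 for CRABP2, -0.047 to 0.69 for RARB and -0.29 to 0.30 for RXRB.

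Replicate numbers are shared between the genotypes but did not pair the libraries: deviations of same-numbered libraries correlated at -0.23, -0.40 and 0.17, and wild-type replicate 2 was closest to STK25KO replicate 1 (0.45). With the replicate block STRA6 and ALDH1A2 stayed called and DHRS3 did not (1.19, limma adjusted p = 0.0761). STK25, BCO2, RDH10, DHRS4, NCOA1, TGM2, GBX2 and PLN also lost their calls with that block. Of 957 comparisons of a single named gene with an alternative, 864 gave the same direction and side of the threshold, 82 lost the call, 4 gained it and 7 changed sign. ALDH1A1, ALDH1A3, CRABP1, CYP26A1 and CYP26B1 each had at most 22 reads in any library, and no difference was detected for them.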
